A study of Mus musculus with 3 samples.

Results

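The genes described here are 9 genes of Fc receptor signalling in mouse macrophages, 9 of 55536 annotated genes in all, taken by symbol and matched to gene identifiers through the transcript tables. They are the activating IgG receptor genes Fcgr1, Fcgr3 and Fcgr4, the signalling chain gene Fcer1g, the inhibitory receptor gene Fcgr2b, the neonatal Fc receptor gene Fcgrt, the kinase genes Syk and Lyn, and the lipid phosphatase gene Inpp5d. Their RNA was measured by sequencing total RNA, depleted of ribosomal RNA, from the cytosol of macrophages that had been grown in culture from bone marrow of C57BL/6J mice. All 3 libraries form 1 group, biological replicates 1, 2 and 3. All cells had a first exposure of 12 hours to Lipid A, the part of bacterial lipopolysaccharide that Toll-like receptor 4 senses, at 100 ng/ml, then 12 hours after washout, and a second dose of 100 ng/ml for the last 40 minutes. Age and sex of the mice were not collected, per the labels, and the libraries share a donor label, so it is not given whether the cultures came from separate animals. Unstimulated cells and nuclear RNA were not analysed here, and the values are levels in stimulated cells, not responses. The spread between these libraries may in part be technical. In bulk RNA, fewer cells of a type and less RNA per cell cannot be told apart.

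Fc receptors let a macrophage bind antibody-coated particles and take them up. When IgG complexes cluster an activating receptor, a Src-family kinase such as Lyn phosphorylates tyrosines of the immunoreceptor tyrosine-based activation motif (ITAM) of the paired signalling chain, and the kinase Syk docks there and passes the signal on. The inhibitory receptor carries an immunoreceptor tyrosine-based inhibition motif (ITIM), which recruits the inositol phosphatase encoded by Inpp5d, also called SHIP1, and dampens the same signal.

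Libraries held 38197192, 46327891 and 38685666 expected counts on annotated genes in replicates 1, 2 and 3. The TPM unit divides counts by effective length and scales each library to a fixed total, so levels of different genes can be compared on it. Nuclear protein-coding genes took only 33.3%, 28.1% and 27.7% of TPM, so levels are also given rescaled to the same total over these 22015 genes where libraries are compared. All 8 macrophage markers were detected, that is at 1 TPM or more in every library, and their summed level was 3856 to 5374 TPM. Of 33 markers of mast cells, B cells, NK cells, neutrophils, dendritic cells and platelets, 6 were detected. These were Pf4 at 77.9 TPM, S100a9 at 4.55, S100a8 at 3.22, Hdc at 2.56, Klrk1 at 1.89 and Cd79b at 1.53 TPM. The defining markers Fcer1a, Klrb1c and Ly6g were at 0 in all libraries, Cpa3 did not exceed 0.03 TPM, and none of 5 dendritic cell markers was detected. Fc receptor genes are also expressed by several of those cell types, and the part of such cells in the levels was not tested.

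The sequences below show the coding features on which the members differ. They are transcript-strand DNA letters of the mm10 build, read 5′ to 3′ with annotation M21, and the positions are the genomic span of each stretch. The signalling motifs come first. For Fcer1g-201 the stretch is the ITAM, codons 65 to 79, which crosses from exon 4 into exon 5 (chr1:171229889-171230072, minus strand), with the codons of both motif tyrosines in capitals. For Fcgr2b-202 it is the ITIM in exon 7, codons 270 to 275 (chr1:170961071-170961088, minus strand), with the tyrosine codon in capitals.
Fcer1g ITAM: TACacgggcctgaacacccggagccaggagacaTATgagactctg
Fcgr2b ITIM: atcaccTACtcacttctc
In the translated coding sequences of Fcer1g, Fcgr2b, Fcgr1, Fcgr3 and Fcgr4, a match to the ITAM pattern (tyrosine, any 2 residues, leucine or isoleucine, a gap of 6 to 8 residues, and the same again) was found once in Fcer1g and in none of the other 4. A match occurs in 2.87% of all protein-coding genes (627 of 21838). The ITIM pattern (isoleucine, leucine, valine or serine, any residue, tyrosine, any 2 residues, leucine or valine) is loose, with a match in 41.1% of genes, 1 in Fcgr2b, 1 each in Fcer1g and Fcgr4, 2 in Fcgr1 and none in Fcgr3, so the stretch is called an ITIM here from what is known of this receptor.

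All 9 genes were detected, against 41.4% of nuclear protein-coding genes (9106 of 22015). The receptor apparatus was abundant and steeply graded. Fcer1g ranked 15 and Fcgr1 134 among nuclear protein-coding genes by mean rescaled TPM, and 8 of the 9 members, Fcgrt excepted, ranked between 15 and 963. Together the 9 members held 0.701%, 0.714% and 0.743% of the TPM of nuclear protein-coding genes in replicates 1, 2 and 3.

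The activating receptor genes were led by Fcgr1. Fcgr1 (chr3:96282909-96293969, minus strand) encodes the high-affinity IgG receptor, which can bind single IgG molecules. It had 286, 234 and 212 TPM in replicates 1, 2 and 3, a mean of 243.9 ± 37.7 (SD, n = 3). The rescaled levels of Fcgr1, at 857, 835 and 767, lay within 1.12-fold of each other, the narrowest range of the 9 members. Fcgr4 (chr1:171018920-171029761, plus strand), the receptor of intermediate affinity for IgG2a and IgG2b, had 145, 135 and 116 TPM (mean 132 ± 14.8). Fcgr3 (chr1:171051174-171064935, minus strand), a low-affinity receptor, had 105, 93.25 and 72.9 TPM (mean 90.3 ± 16.1). On both deposited and rescaled TPM, replicate 3 was the lowest library for all of these activating genes, and the rescaled level of Fcgr3 in it, 264, stood below 314 and 332 in replicates 1 and 2.

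Fcgr4 was lower than Fcgr1 in every library. The log2 ratio of Fcgr4 to Fcgr1 was -0.98, -0.79 and -0.87 in replicates 1, 2 and 3, a mean of -0.88 ± 0.09 (SD, n = 3), which is 1.84-fold lower. An exact sign-flip permutation test over 3 libraries, two-sided, gave p = 0.25, the smallest value that 3 libraries allow, so none of the ratios given here can pass a threshold of 0.05 by this test. In the read-based transcript table, made without an alignment file, the log2 ratio was -1.15. With protein-coding transcripts alone, rescaled over those of nuclear genes, the gap was instead smaller in each library. The levels were then 479, 521 and 462 for Fcgr4 against 789, 843 and 757 for Fcgr1.

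Fcer1g (chr1:171229572-171234365, minus strand) encodes the FcRγ chain that the activating receptors need for surface expression and signalling. Its level was 1353, 1226 and 1280.5 TPM, a mean of 1286 ± 63.9 (SD, n = 3), from 34028, 44893 and 37965 expected counts. Replicates differed by no more than 1.10-fold on the TPM scale and 1.14-fold after rescaling. Fcer1g exceeded the summed TPM of Fcgr1, Fcgr3 and Fcgr4 in all 3 libraries, with 1353, 1226 and 1280.5 TPM for the chain, against 535.5, 463 and 401 TPM for the receptor sum. The log2 ratio was 1.34, 1.41 and 1.67 (mean 1.47 ± 0.18), or 2.78-fold, with p = 0.25 by the exact sign-flip test. The transcript is short, at 674 bases, and with expected counts divided by annotated in place of effective length the mean log2 ratio was 1.10. Other immune receptors also pair with this chain, and protein was not measured.

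Fcgr2b (chr1:170958617-170976547, minus strand) encodes the inhibitory receptor. It had 138, 99.65 and 122 TPM (mean 119.7 ± 19.2, SD, n = 3), and replicate 2 was the lowest library. Activating receptor transcripts together outnumbered it in each library, with 535.5, 463 and 401 TPM against 138, 99.65 and 122 TPM. That log2 ratio averaged 1.96 ± 0.25, a 3.90-fold excess (p = 0.25, exact sign-flip test). Taken one against one, the low-affinity pair ran the other way. Fcgr3 was below Fcgr2b in 3 of 3 libraries, but the log2 ratio of -0.40, -0.10 and -0.74 (mean -0.41 ± 0.32) was close to its spread (p = 0.25, exact sign-flip test).

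Fcgr2b and Fcgr3 are near neighbours on chromosome 1 and their coding sequences overlap in letters. Of all stretches of 31 bases in the coding sequence of Fcgr2b, 27.4% also occur in Fcgr3, and 30.2% of those of Fcgr3 occur in Fcgr2b. No such stretch was shared by Fcgr1, Fcgr4, Fcer1g, Fcgrt, Syk or Inpp5d with another annotated gene. The longest run common to both, 129 bases of the part that encodes the extracellular domains, lies in exons 3 and 4 of Fcgr2b-202 (chr1:170966674-170968081, minus strand) and in exons 3 and 4 of the leading Fcgr3 transcript (chr1:171054167-171057792, minus strand). It is printed once, since both genes carry the same letters.
Fcgr2b and Fcgr3 shared run: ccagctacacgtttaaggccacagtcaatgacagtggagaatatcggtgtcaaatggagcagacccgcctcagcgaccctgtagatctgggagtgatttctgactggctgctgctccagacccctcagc
Reads that fall wholly within this run or another shared stretch could belong to either gene. The ratio of Fcgr3 to Fcgr2b depends on how such reads were divided. The read-based table gave both genes nearly the same level as the gene table, 1.03-fold for Fcgr2b and 0.94-fold for Fcgr3.

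The neonatal receptor gene was the lowest member. Fcgrt (chr7:45092990-45103851, minus strand) encodes the heavy chain of FcRn, which binds IgG in acidic endosomes and returns it from degradation, and which pairs with the light chain encoded by B2m. Fcgrt had 19.8, 15.3 and 19.6 TPM (mean 18.2 ± 2.53, SD, n = 3) and ranked 2546. B2m, which also serves MHC class I molecules, had 3736, 3713 and 2941 TPM. The log2 ratio of Fcgrt to B2m was -7.57 ± 0.35, 190.0-fold lower, in 3 of 3 libraries (p = 0.25, exact sign-flip test). The interval that the deposited table gives for Fcgrt, whose level is not stated, was wide in some libraries. Its upper bound was 67.1 and 51.9 TPM in replicates 1 and 2 and 20.4 TPM in replicate 3. The bounds in replicates 1 and 2 lay above the TPM of Inpp5d there, 52.7 and 43.8. These intervals do not always hold the deposited TPM, which for Fcer1g and Syk lay above its own upper bound in each library.

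The kinase genes lay at nearly the same level, and their order depended on the table. Lyn (chr4:3678115-3813122, plus strand), the Src-family kinase, had 119.9, 77.7 and 87.9 TPM (mean 95.2 ± 22.0, SD, n = 3). Syk (chr13:52583173-52648792, plus strand), the kinase that binds phosphorylated ITAMs, had 116, 77.4 and 91.4 TPM (mean 94.8 ± 19.4). Both were highest in replicate 1 and lowest in replicate 2. Their within-library log2 ratio, Lyn over Syk, was 0.05, 0.006 and -0.06, which averaged 9.05e-05 ± 0.05 (p = 1, exact sign-flip test). In the gene tables a difference was thus not detectable against a replicate spread of 0.05 on the log2 scale. With protein-coding transcripts alone, rescaled over those of nuclear genes, Lyn had 371, 290.5 and 307 against 323, 285 and 307 for Syk. On that scale the gap in replicate 1 was wider than with all transcripts. By the read-based quantification Lyn was above Syk in 3 of 3 libraries, at 385.0, 275 and 340.3 rescaled TPM against 354.5, 262 and 325 for Syk, a mean log2 ratio of 0.09 ± 0.03 that exceeded 2 SD.

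Inpp5d (chr1:87620312-87720507, plus strand), the inhibitory phosphatase, was below Syk. It had 52.7, 43.8 and 52.5 TPM (mean 49.7 ± 5.10, SD, n = 3), and the log2 ratio to Syk was -1.14, -0.82 and -0.80 in replicates 1, 2 and 3. The mean of -0.92 ± 0.19 is 1.89-fold lower, in 3 of 3 libraries (p = 0.25, exact sign-flip test). With protein-coding transcripts alone, rescaled over those of nuclear genes, Inpp5d stood further below Syk in each library. Its levels were then 129, 114 and 137, against 323, 285 and 307 for Syk.

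Set in order of mean TPM, the members ran Fcer1g, Fcgr1, Fcgr4, Fcgr2b, Lyn, Syk, Fcgr3, Inpp5d and Fcgrt. Neighbours in this order were called apart where their within-library log2 ratio had the same sign in 3 of 3 libraries and a mean over 2 SD, which 5 of 8 neighbouring pairs met. Fcer1g stood above Fcgr1 by 2.41 ± 0.18 on the log2 scale, Fcgr1 above Fcgr4 by 0.88 ± 0.09, Fcgr2b above Lyn by 0.34 ± 0.13, Fcgr3 above Inpp5d by 0.85 ± 0.33, and Inpp5d above Fcgrt by 1.45 ± 0.06. With all transcripts counted, Fcgr4 and Fcgr2b could not be ordered (0.15 ± 0.26), nor could Lyn and Syk in these tables, nor Syk and Fcgr3 (0.07 ± 0.31). With protein-coding transcripts alone, rescaled over those of nuclear genes, Fcgr4 was above Fcgr2b in 3 of 3 libraries. The levels were 479, 521 and 462 for Fcgr4 and 381, 361 and 403 for Fcgr2b. On that scale Lyn, at 371, 290.5 and 307, was below Fcgr2b in each library, but by little in replicate 1. Inpp5d, at 129, 114 and 137, stayed below Fcgr3, at 338, 351 and 271, and above Fcgrt, at 62.8, 56.8 and 75.2. Compared with all transcripts, its gap to Fcgr3 was wider in each library and its gap to Fcgrt narrower. The calls of pairs as apart were made with all transcripts. At 3 SD, 3 pairs remained past the limit.

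**Figure D1:**
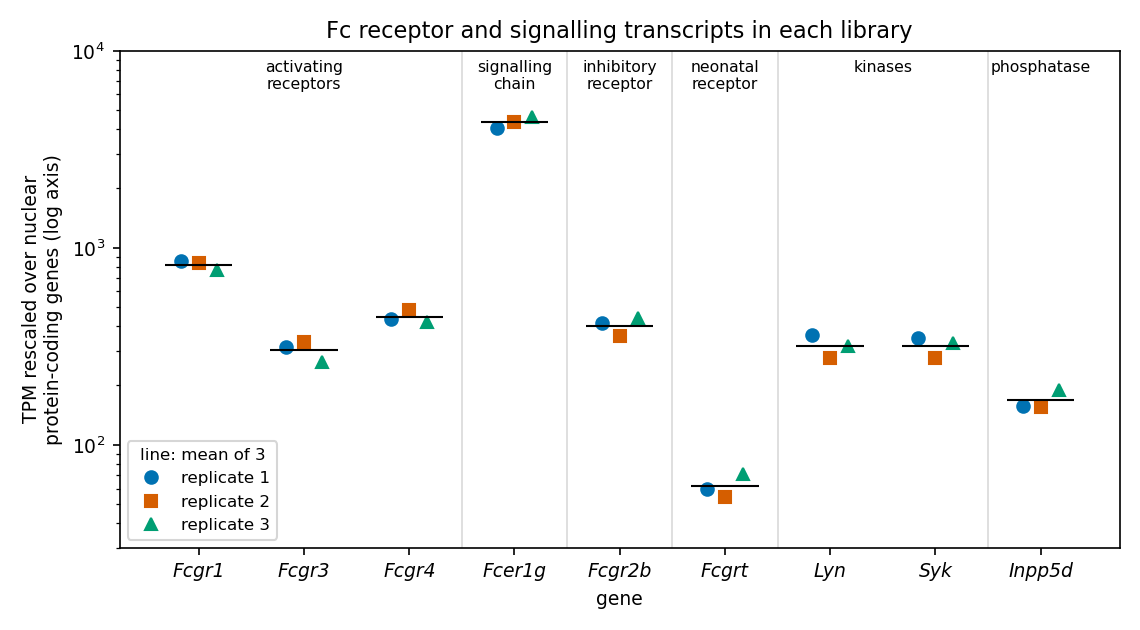
Level of each of the 9 genes in replicates 1, 2 and 3, as TPM rescaled over nuclear protein-coding genes on a log axis, grouped by role; points are libraries and the line is the mean of 3. Fcer1g, between 4061 and 4630, stands above every other member, Fcgr1 lies between 767 and 857, and Fcgrt is lowest at 54.6 to 70.9.

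Replicates differed in ways that the scale decides. On deposited TPM replicate 1 was the highest library for 9 of 9 members, but also for 76.7% of detected nuclear protein-coding genes (6987 of 9106), and it is the library in which these genes took the largest share of TPM. After rescaling, replicate 1 was highest for Fcgr1, Syk and Lyn, replicate 2 for Fcgr3 and Fcgr4, and replicate 3 for Fcgr2b, Fcer1g, Fcgrt and Inpp5d. The SD of log2(TPM + 1) over libraries had a median of 0.217 over the members, against 0.157 over all detected genes. With rescaled TPM those medians were 0.158 over the members and 0.128 over all detected genes, and the members ranged from 0.08 for Fcgr1 to 0.19 for Fcgrt. A library's deviation, its log2 level less the mean of the other 2 libraries, centred on the median over detected genes, was 0.23 for Syk and 0.30 for Lyn in replicate 1. In replicate 2 it was -0.24 for Fcgr2b, -0.27 for Syk and -0.27 for Lyn, within the range of -0.445 to 0.35 between the 5 and the 95 percentile of detected genes, whereas Fcgr3 and Fcgr4 deviated upwards there by 0.23 and 0.19. The largest deviation of a member was -0.35, for Fcgr3 in replicate 3, where the same percentile range was -0.391 to 0.37. In replicate 1 that range was -0.322 to 0.376. No member lay outside the range of detected genes in any library.

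The transcript tables show which forms of these genes were present. A transcript is named where its mean share of the gene's TPM reached 10% in either the alignment-based or the read-based table. Fcgr2b makes a form with an additional cytoplasmic exon, known as the b1 form of B cells, and a form without it, the b2 form of macrophages, which is taken up with bound complexes. Fcgr2b-201 carries the additional exon and Fcgr2b-202 skips it, with no other difference in the coding sequence. The exon is exon 6 of Fcgr2b-201 (chr1:170963325-170963465, minus strand), 141 bases that add 47 codons, shown in capitals with 15 bases on each side.
Fcgr2b-201 added exon: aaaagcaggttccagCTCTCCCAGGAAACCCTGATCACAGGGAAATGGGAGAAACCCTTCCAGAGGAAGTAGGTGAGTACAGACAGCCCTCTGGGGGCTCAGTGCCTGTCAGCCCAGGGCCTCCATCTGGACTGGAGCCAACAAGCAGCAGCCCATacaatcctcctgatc
Fcgr2b-202, without these bases, made up 64.0%, 75.6% and 65.2% of the gene's TPM in replicates 1, 2 and 3, and Fcgr2b-201 made up 19.6%, 18.2% and 18.0%. The ratio of Fcgr2b-202 to Fcgr2b-201 was 3.26, 4.16 and 3.62 in the alignment-based table and 3.44, 4.96 and 3.80 in the read-based table, above 1 in 3 of 3 libraries of each. These transcripts are annotated at 1462 and 3544 bases, so they differ over much more than the added exon, and the shares do not rest on reads across it alone.

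Lyn likewise makes a longer form, LynA, and a shorter one, LynB, which lacks a stretch of the unique region near the N-terminus. The longer Lyn-201 held 60.6%, 61.8% and 56.6% of the gene's TPM and the shorter Lyn-202 33.2%, 35.2% and 31.3%. Their ratio was the steadiest of the isoform ratios, 1.83, 1.76 and 1.81 in replicates 1, 2 and 3. It was larger in the read-based table, at 2.27, 2.15 and 2.29. Unlike the forms of Fcgr2b, these transcripts differ little in length, 3463 against 3387 bases. A noncoding transcript, Lyn-204, took 5.91%, 2.99% and 11.6% of Lyn TPM, lowest in replicate 2.

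The leading transcripts of Syk, Syk-201 and Syk-203, share all 1887 coding bases, so their ratio bears on noncoding parts only. Syk-201 held 53.6%, 57.8% and 46.9% of TPM, and the ratio of Syk-201 to Syk-203 was 1.86, 1.60 and 1.32. In the read-based table the ratio was 1.39, 1.20 and 0.97, so the order of these transcripts is not settled between tables. Fcer1g-201 held 99.1%, 99.4% and 99.3% of Fcer1g TPM, the leading Fcgr3 transcript held 89.96%, 88.8% and 86.3% of Fcgr3 TPM, and Fcgr4 has 1 annotated transcript. Fcgrt-201 held 80.7%, 75.6% and 75.3%, and Fcgrt-203, whose coding sequence has 12 more bases, 15.4%, 20.6% and 20.9%. In the read-based table these shares were 71.0%, 67.7% and 52.9% for Fcgrt-201 and 15.7%, 23.8% and 25.3% for Fcgrt-203. The retained-intron transcript Fcgrt-206 had 10.3%, 4.42% and 18.2% there, against 0.66%, 0.46% and 0.46% in the alignment-based table.

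Some short minor transcripts took a larger share of their gene's TPM than of its counts. A transcript of Fcgr1 annotated for nonsense-mediated decay, 600 bases long, took 16.1%, 6.53% and 10.4% of Fcgr1 TPM, but only 3.02%, 1.11% and 1.79% of its expected counts. The read-based table gave this transcript a larger share, 25.4%, 28.2% and 29.98%. Fcgr1 was also the member whose gene level moved most between tables, 1.15-fold higher in the read-based one. In Inpp5d the retained-intron transcript Inpp5d-203, at 364 bases, took 22.2%, 31.2% and 28.9% of TPM from 1.01%, 1.58% and 1.39% of counts. Its coding transcript Inpp5d-210 held 42.2%, 31.6% and 31.4% of TPM in the alignment-based table and 56.6%, 39.7% and 27.9% in the read-based one. Among other coding transcripts, the order of Inpp5d-211 and Inpp5d-201 turned between tables in replicates 2 and 3, but not in replicate 1. Inpp5d-211, which lacks 972 of the 3573 coding bases of Inpp5d-210, held 19.3%, 12.7% and 14.7% in the alignment-based table but 11.6%, 4.61% and 1.94% in the read-based one. Inpp5d-201, which lacks 3 of those bases, held 7.67%, 9.44% and 7.92% in the alignment-based table and 9.49%, 12.9% and 8.28% in the read-based one. No member met the limit for a difference between tables, over 1.5-fold with one sign in 3 libraries, against 2.41% of detected genes (219 of 9106).

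**Figure D2:**
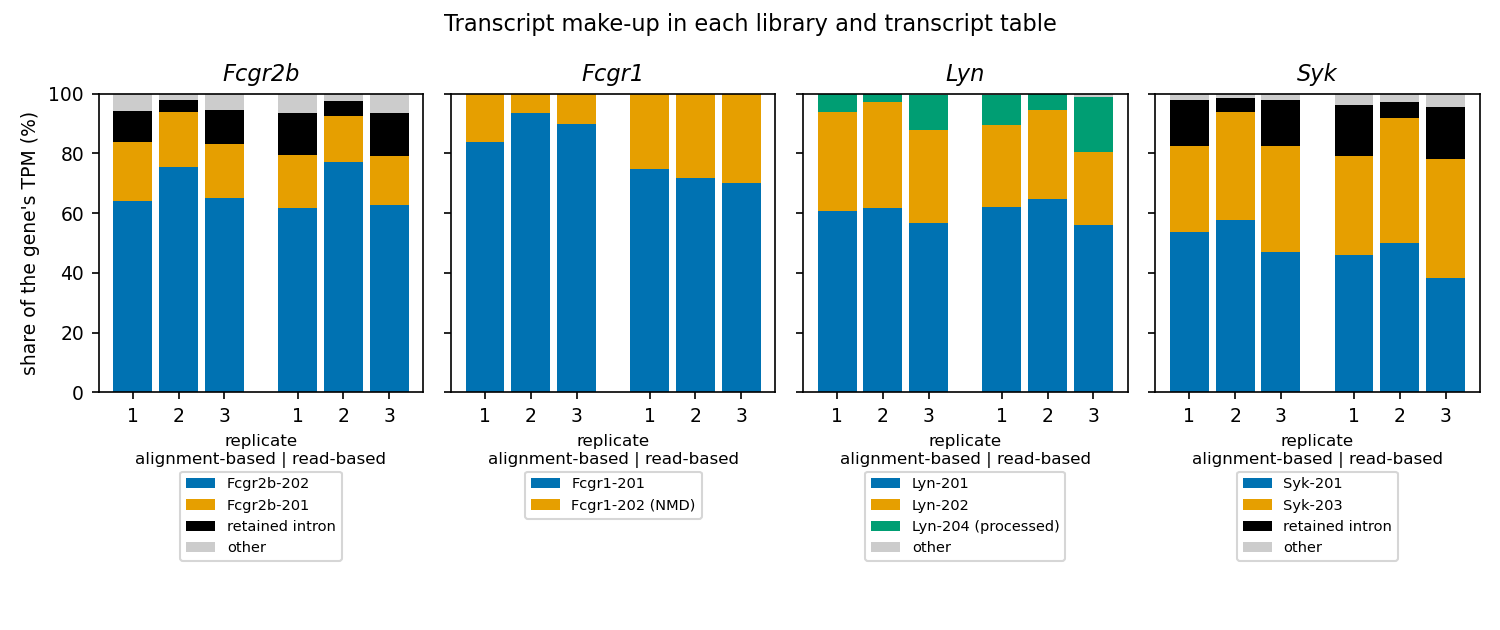
Share of each gene's TPM in its named transcripts, in retained-intron transcripts and in all others, for Fcgr2b, Fcgr1, Lyn and Syk, as stacked bars for replicates 1, 2 and 3 in the alignment-based table (left of each panel) and the read-based table (right); NMD stands for nonsense-mediated decay. Fcgr2b-202 and Lyn-201 are the largest parts in all 6 bars of their panels, the nonsense-mediated decay transcript of Fcgr1 has a larger share in the read-based table, and the retained-intron parts of Fcgr2b and Syk are smallest in replicate 2.

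Retained-intron transcripts of Fcgr2b and Syk were scarce in replicate 2. For Fcgr2b they took 10.4%, 4.07% and 11.2% of the gene's TPM in replicates 1, 2 and 3, and for Syk 15.3%, 4.54% and 15.5%. Fcer1g, whose share was below 0.2% throughout, was also lowest in replicate 2, whereas Fcgr3, Fcgrt and Inpp5d were not. Thus 3 of the 6 members with such a transcript were lowest in replicate 2 in the alignment-based table, against 76.3% of all detected genes with one (4255 of 5578). By the read-based quantification, all of them but Inpp5d were lowest there, 5 of 6, against 80.7% of such genes (4602 of 5700). Over genes with a mean share above 1% the median was 6.33%, 2.46% and 7.83%, again lowest in replicate 2. Malat1, a long RNA that is kept in the nucleus, was low in the same library, at 1445, 485 and 1726 TPM, as was Neat1 at 87.7, 16.1 and 88.3 TPM, and the part of nuclear RNA in these shares was not tested.

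The levels of Fcgr2b and Syk changed in their replicate range when only protein-coding transcripts were counted. With coding transcripts alone, rescaled over the coding transcripts of nuclear genes, the highest library exceeded the lowest by 1.12-fold for Fcgr2b, against 1.24-fold with all transcripts. For Syk the range was 1.14-fold with coding transcripts and 1.26-fold with all. For Lyn it stayed wide, at 1.28-fold and 1.30-fold, and for Fcgr3 it was 1.30-fold and 1.26-fold. Replicate 2 remained the lowest library for Fcgr2b, Syk and Lyn on both scales. In the read-based table the range with coding transcripts was 1.13-fold for Fcgr2b, 1.21-fold for Syk, 1.35-fold for Lyn and 1.28-fold for Fcgr3.

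**Figure D3:**
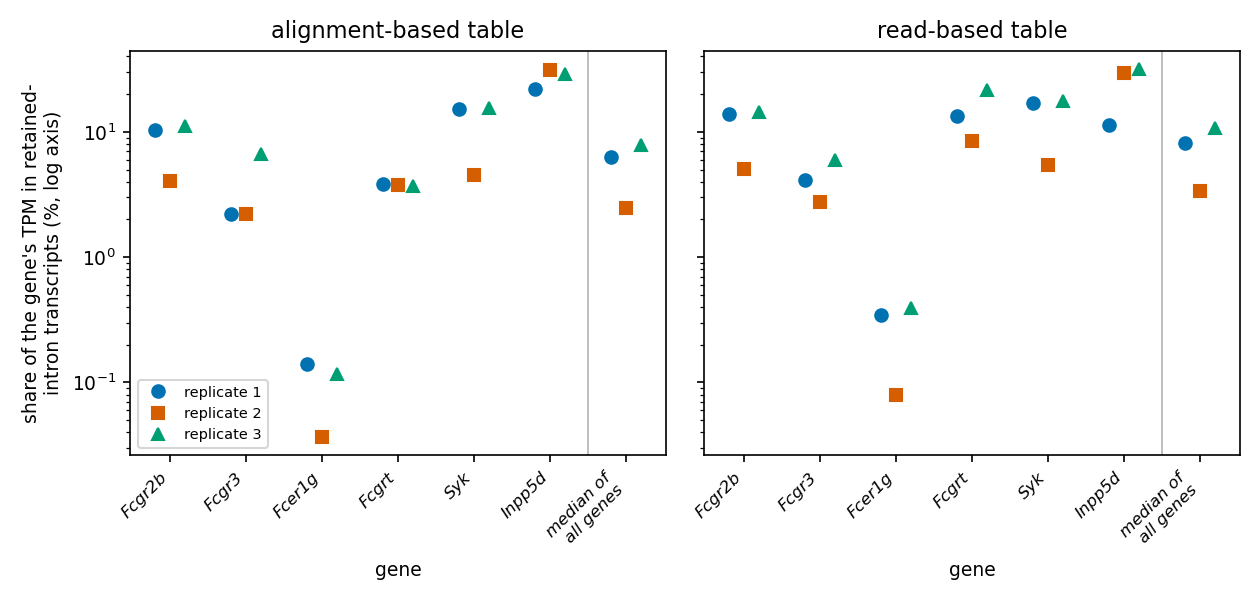
Share of a gene's TPM in retained-intron transcripts, on a log axis, for the 6 members that have such a transcript and as the median over all detected genes with a mean share above 1%, in the alignment-based table (left) and the read-based table (right); points are replicates 1, 2 and 3. Replicate 2 lies lowest for Fcgr2b, Fcer1g and Syk and for the median in both panels, and not for Inpp5d.

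Lyn shares ground with other genes in 2 ways. The antisense lincRNA gene Gm26857 (chr4:3678117-3689548, minus strand) lies within its first part and had 1213, 266 and 1686 expected counts, equal to 6.03%, 1.36% and 10.05% of the Lyn count in replicates 1, 2 and 3. The strand setting of the counting is not stated, so reads of Lyn and of Gm26857 cannot be told apart with certainty. In addition, 46.1% of the stretches of 31 bases in the coding sequence of Lyn also occur in the unprocessed pseudogene Gm11787, to which at most 5.47 expected counts of the gene table and 7.11 counts of the read-based table were assigned in a library.

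Around the 9 members, a list of 72 other genes of Fc receptor signalling was examined, of which 52 were detected. Over all nuclear protein-coding genes the detected share was 41.4% (9106 of 22015). The median level of the list was 3.67 on the log2(TPM + 1) scale, against 6.56 for the 9 members, 3.25 for detected nuclear protein-coding genes and 0.23 for all of them. The list of other Fc and immunoglobulin receptors also holds B2m, which encodes a light chain and not a receptor by itself. Its genes were mostly below the limit, with 4 of 15 detected. Those were B2m at 3464 ± 452 TPM, Trim21, a cytosolic receptor for antibody, at 21.8 ± 4.28, Fcrls at 6.25 ± 2.60 and Fcrl5 at 2.15 ± 0.45 TPM (SD, n = 3). Fcamr, the receptor for IgA and IgM, and Fcer1a, the IgE-binding chain, were listed at 0 in all libraries.

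Of 13 ITAM adaptors and Src-family and Tec kinases, 6 were detected, a share near the 41.4% of all nuclear protein-coding genes (9106 of 22015). Tyrobp, which encodes the ITAM adaptor DAP12, had 641, 585 and 524 TPM (mean 583 ± 58.5), below Fcer1g in each library. The Tec-family kinase genes Btk and Tec had 20.7 ± 1.498 and 10.6 ± 0.72 TPM. Blk, a Src-family kinase of B cells, was listed at 0, and Bmx did not exceed 0.02 TPM.

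Downstream, 22 of 23 adaptors and effectors were detected. Pik3ap1, which links receptors to phosphoinositide 3-kinase, had 266 ± 28.8 TPM, the adaptor gene Grb2 146 ± 19.9, the membrane adaptor gene Lat2 86.65 ± 12.2 and the protein kinase C gene Prkcd 79.0 ± 16.5 TPM. Lat, the T cell relative of Lat2, did not exceed 0.11 TPM and was the only one not detected. Of 21 inhibitors 20 were detected, all but Inpp4b, which did not exceed 0.87 TPM. Sirpa, the receptor for the CD47 signal that restrains phagocytosis, had 642 ± 58.0 TPM, more than any other gene of its group, followed by the ITIM receptor genes Lilrb4a at 215.0 ± 38.0 and Pirb at 161.8 ± 19.9 TPM. Ptprc, the CD45 phosphatase gene, had 123 ± 22.8 TPM.

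**Figure D4:**
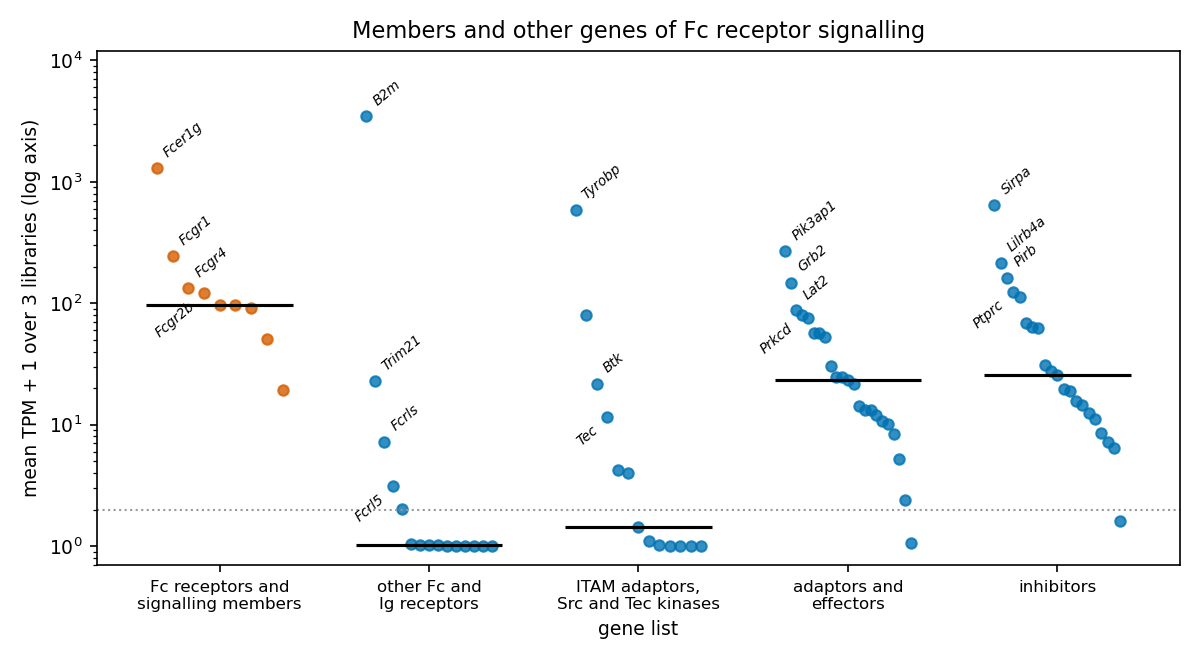
Mean TPM + 1 over 3 libraries, on a log axis, of the 9 members (orange) and of the 72 other genes in 4 lists (blue), each sorted from high to low, with the line at the list's median and the dotted line at 1 TPM. Up to 4 of the highest genes of each list are named. Adaptors, effectors and inhibitors lie mostly above the dotted line. In the list of other Fc and immunoglobulin receptors, which includes the light-chain gene B2m, 11 of 15 genes were not detected.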

How the data were processed

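Per the labels, 3 libraries of 1 group were made from 1 µg of RNA each at a size range of 250 to 400 bases. The deposited gene tables hold expected counts, TPM, FPKM and bounds of TPM in the column layout of RSEM; a deposited transcript table of the same layout adds the percent of a gene's TPM in each transcript. Another deposited transcript table, called read-based, gives TPM and estimated counts obtained from reads without alignment, in the layout of kallisto. Accompanying text files name mm10 and annotation M21; the tools used are not given in the sources here. Rows naming no gene held 0.356%, 0.125% and 0.104% of expected counts in replicates 1, 2 and 3 and were left out.

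Computed here were log2 ratios within a library, tested by an exact sign-flip permutation test (SciPy 1.17.1), two-sided, shares of TPM, and SDs of log2(TPM + 1), which understates changes of low genes. Rounded expected counts gave TMM (edgeR 4.0.16) and DESeq2 1.42.0 size factors for the spread only. All pairs of libraries differed beyond sampling noise (chi-square per degree of freedom 39.3 to 97.2, on genes with 10 counts or more). Coding sequences were read from the M21 annotation and transcripts. The scripts were tested on simulated data. What the deposited intervals cover is not stated, and neither they nor the counts measure the spread between libraries.

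The members, lists and alternatives were chosen with earlier results of these data known. Named were all members, genes of the ratios, the 4 highest genes of each list, the first 2 in alphabetical order below 1 TPM in all libraries, and detected markers of other cell types; 2 genes and 1 sequence are not reported here. Added after the values were seen were Malat1, Neat1, Gm26857, Gm11787, the undetected markers named, the retained-intron shares, the replicate that was highest, the coding-transcript levels and the isoform ratios. Alternatives were other tables, FPKM, annotated length, thresholds, pseudocounts, scalings and each library left out.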

Additional observations from a re-analysis of the deposited data

How the results depend on the processing

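Ratios moved mainly with the length model and the table. With expected counts per annotated length, Fcer1g over the activating sum was 1.10 (log2) against 1.47, Fcgr4 over Fcgr1 -1.02 against -0.88, and Lyn over Syk -0.0341 against 9.05e-05. The read-based table gave -1.15 for Fcgr4 over Fcgr1 and 0.0863 for Lyn over Syk, past 2 SD. Leaving out each library put Lyn over Syk between -0.025 and 0.0281. The median spread of the members, 0.217 on log2(TPM + 1), was 0.124 with TMM, 0.117 with DESeq2 size factors and 0.158 after rescaling over nuclear protein-coding genes. Rescaling together with counting protein-coding transcripts only gave 0.0966. At 3 SD in place of 2, 3 neighbouring pairs were apart, against 5, and 5 members had their lowest retained-intron share in replicate 2 in the read-based table, against 3. Causes were not tested, other than the stricter limit itself. The ratios of Fcgr3 and of the activating sum to Fcgr2b, of Inpp5d to Syk and of Fcgrt to B2m kept their direction under all 7 alternatives. They also stayed within 1 SD. Only the read-based table and annotated length could have turned the direction. FPKM and the alignment-based table give the same ratios but for rounding, and leaving out a library cannot turn a sign that all libraries share. All 9 members were detected under all 8 alternatives. Of those, only the limits of 5 and 10 TPM and the read-based table could have lowered the count. Ratios from protein-coding transcripts alone were not among these alternatives. No paired analysis was possible because all libraries belong to 1 group. With 3 libraries the exact sign-flip test could not reach 0.05.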
